A study of Mus musculus with 93 samples.

Results

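Oocytes of 4-week-old mice without a working Esr2 gene were compared with oocytes of wild type mice of the same age. Esr2 encodes estrogen receptor beta, a nuclear receptor that binds estradiol and acts as a transcription factor. The comparison used 19 of the 93 libraries of the series: the 7 knockout libraries and the 12 wild type libraries of 4 week oocytes, chosen by the column names of 1 count table. The sample labels say only knock-out, the series title names the receptor, and neither gives an allele, a strain, the number of oocytes per library or the animal of origin. Each library was taken as a replicate. The p-values therefore describe how libraries vary, and some of that variation may be technical. RNA was amplified with Smart-seq2, which makes cDNA along whole transcripts from very few cells. Granulosa cells, the somatic cells around the oocyte, and oocytes of 7 weeks and 6 months make up the rest of the series.

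The growing oocyte stores RNA and protein for meiosis and for the first divisions of the embryo, and it exchanges signals with the granulosa cells of its follicle. Oocyte factors such as Gdf9 and Bmp15 act on the granulosa cells, which in turn supply metabolites through gap junctions. Granulosa cells convert androgens to estradiol and are the best known site of Esr2 action in the ovary, where the receptor is needed for normal follicle maturation and ovulation.

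In the knockout oocytes Esr2 RNA was at or near 0 in every library, and no other gene passed the test. Library totals ran from 3992040 to 5690560 estimated counts in knockout and from 2415440 to 6485250 in wild type. Of 16049 genes listed, 10828 passed the filter on low counts and were tested by the quasi-likelihood F test of edgeR, with Benjamini-Hochberg adjustment. With 1 of 10828 genes called at an adjusted p under 0.05, 0.00924% of the genes passed, and that gene was Esr2. The question that the data can answer for the other genes is therefore how large a change lay outside the 95% interval of each, and this was set for each gene as the larger of its upper and lower limits.

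Oocyte markers were abundant in every library. All 15 oocyte markers were measured, and their summed level had a lowest, median and highest value of 34685, 39248 and 51952 CPM, the count scaled to a common library total, in knockout, and 25166, 48743 and 55434 in wild type. Of 20 granulosa and cumulus markers 9 were measured, and Serpine2 made up most of their sum, which ran from 576 to 1082 CPM in knockout and from 455 to 1506 CPM in wild type. The inhibin subunit Inha ran from 0.346 to 25.7 CPM in knockout and from 0.220 to 150 CPM in wild type. Its highest value was in wild type library 11, followed by wild type 2 at 63.5 CPM. Inhba and Fst, both secreted by granulosa cells, averaged 1.22 and 1.32 CPM in knockout and 2.01 and 1.80 CPM in wild type. Other members were higher. Cyp19a1 had counts in all 7 knockout and 12 wild type libraries and averaged 69.9 and 82.1 CPM, and Nr5a2 averaged 19.3 and 16.4 CPM. Knockout library 4 and wild type library 5 stood apart from the other 17 on the first principal component, which held 50.3% of the variance, and both had the lowest granulosa marker sums of their group. They also had the lowest totals of their group, at 3992040 and 2415440 counts. Wild type 5 had the lowest oocyte marker sum of all 19, at 25166 CPM, and knockout 4 the fewest genes with a count, at 12751. Endothelial markers, 4 of 8 measured, summed to 62.5 to 133 CPM in knockout and 48.9 to 104 CPM in wild type. Surface epithelium markers, 4 of 9 measured, summed to 4.25 to 25.6 CPM in knockout and 7.78 to 55.6 CPM in wild type, and 0 of 6 erythroid markers were measured. The sum of 55.6 CPM was again that of wild type 11, against at most 18.9 CPM in the other wild type libraries. Wild type libraries 2 and 9 held immune markers, 5 of 14 measured, at 217 and 439 CPM, against at most 35.4 CPM in the knockout libraries and at most 47.3 CPM in the other wild type libraries. Their sums of theca and stroma markers, 6 of 14 measured, were 384 and 569 CPM, also above the range of 72.9 to 137 CPM in the knockout libraries and of 72.2 to 144 CPM in the other wild type libraries. Apoe made up most of both sums, at 296 and 468 CPM, against at most 37.6 CPM in the other wild type libraries. Of the same list, Dcn had 0 and 4.43 CPM and Myh11 74.6 and 94.5 CPM in wild type 2 and 9. All results keep these 4 libraries and wild type 11, and the part of these RNAs in the results was not tested beyond the counts given without them.

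**Figure D1:**
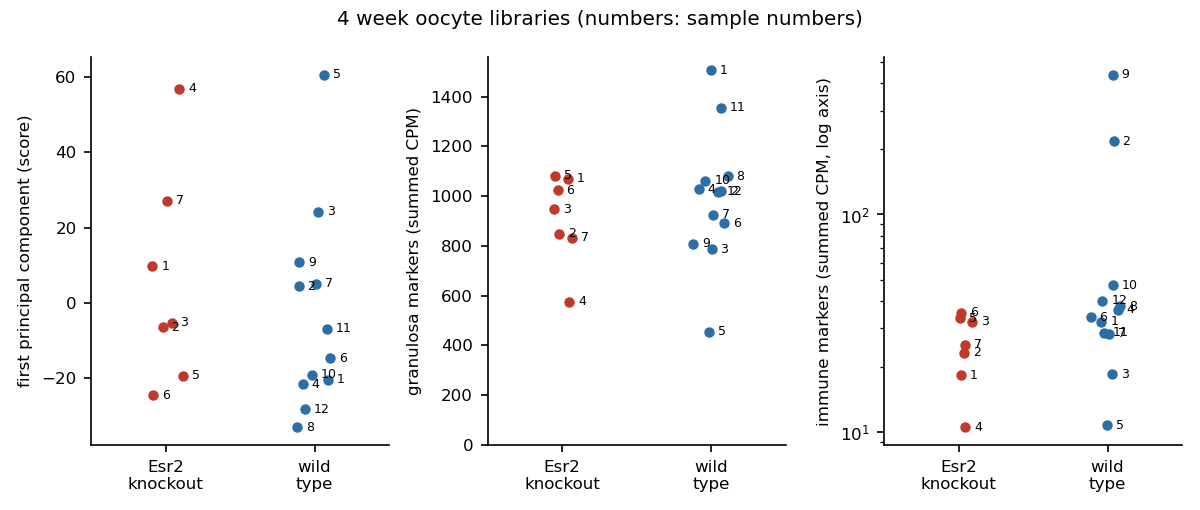
First principal component score, summed granulosa marker level and summed immune marker level (both in CPM, the last on a log axis) of each 4 week oocyte library, Esr2 knockout at the left and wild type at the right of each panel. Knockout 4 and wild type 5 lie at the top of the first panel, and wild type 2 and 9 at the top of the last, at 217 and 439 CPM.

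Esr2 lies on chromosome 12 at 76120419 to 76177259 on the minus strand (GRCm38, GENCODE vM21). It had 1 estimated count in all 7 knockout libraries together, in library 2, and between 124 and 627 counts in each of the 12 wild type libraries. In CPM its lowest, median and highest values were 0, 0 and 0.185 in knockout, against 43.8, 97.0 and 113 in wild type. The groups did not overlap. Pooled over libraries, the share of Esr2 counts was 3137 times higher in wild type than in knockout, with a 95% interval of 563 to 123916 for the ratio of 2 Poisson rates, which covers counting error only. The adjusted p of Esr2 in edgeR was 1.11e-15, and every knockout library matched its label. The kind and position of the lesion in the gene are not given in the labels. The counts show that RNA over the counted gene body was at or near 0 and do not locate the lesion.

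Esr1, which encodes estrogen receptor alpha, was present at a similar level in both groups. Its lowest, median and highest values were 36.1, 45.5 and 56.6 CPM in knockout, against 19.9, 45.2 and 59.3 CPM in wild type, and the groups overlapped over most of their range. The log2 fold change was 0.12 ± 0.17 (SE), with a 95% interval of -0.25 to 0.48, so that a rise of more than 1.39-fold and a fall of more than 1.19-fold lay outside it.

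**Figure D2:**
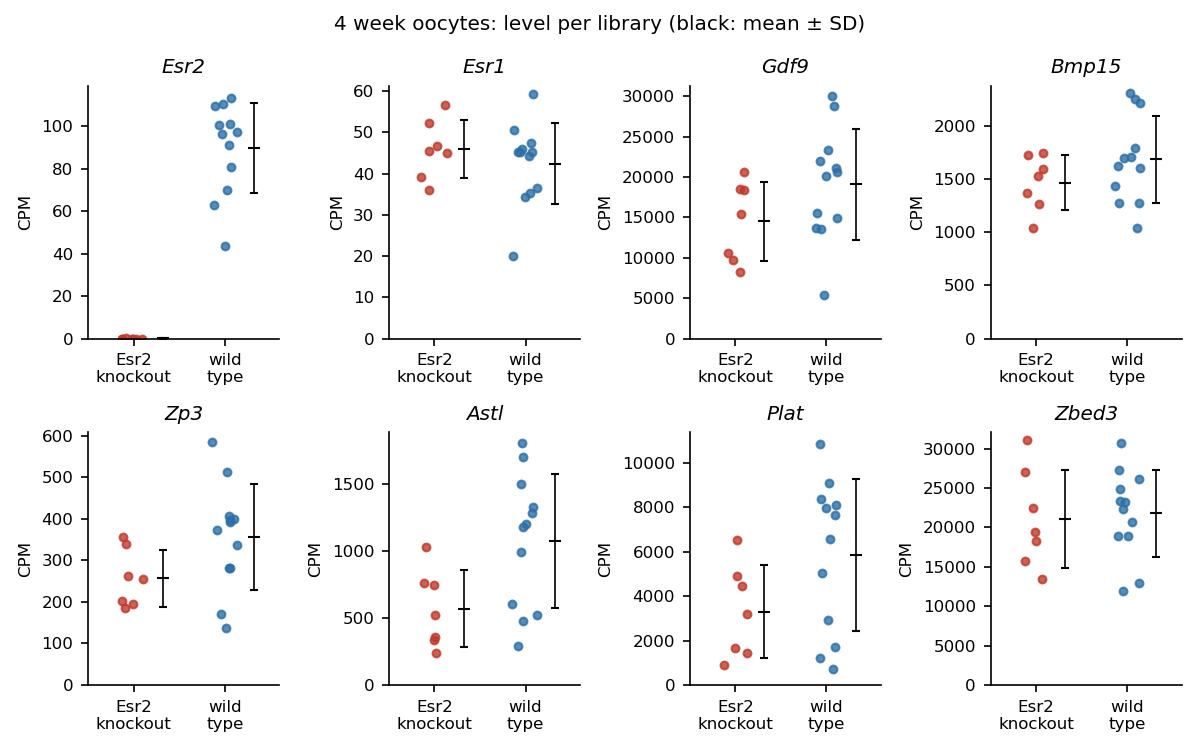
Level in CPM of 8 genes in each 4 week oocyte library, Esr2 knockout at the left and wild type at the right of each panel, with the mean and SD of each group as black bars. Esr2 is at or near 0 CPM in all 7 knockout libraries and at 43.8 CPM or more in all 12 wild type libraries, while the other 7 genes overlap between the groups.

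Of the genes other than Esr2, 350 had an unadjusted p under 0.05, 107 of them higher and 243 lower in knockout, and the smallest adjusted p in edgeR was 0.998. Without wild type library 5, the count at an unadjusted p under 0.05, Esr2 included, was 799 in place of 351, and with library depth as a covariate it was 916. Of the genes with the smallest p, 3 are described here, picked after their values were seen. Bsn, which encodes the presynaptic scaffold protein bassoon, had 0, 0 and 1.13 CPM as lowest, median and highest values in knockout, against 0, 2.77 and 7.50 CPM in wild type. On the side of higher values stood Cep250, a centrosome linker gene, with 26.1, 33.0 and 40.4 CPM in knockout and 13.9, 19.9 and 28.6 CPM in wild type. Rnf168, a ubiquitin ligase of the DNA damage response, had 197, 308 and 361 CPM in knockout and 129, 198 and 248 CPM in wild type. The groups overlapped for each of these 3 genes, and none passed the adjustment.

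How much change was compatible with the data depended on the level of the gene. Over all 10828 tested genes the median of the largest fold change inside the interval was 1.72. A 2-fold change in either direction lay outside the interval for 7464 genes, or 68.9% of those tested, and a 1.5-fold change for 2885, or 26.6%. By an equivalence test (2 one-sided tests on the edgeR fit, adjusted over all tested genes), 7976 genes, or 73.7%, passed at the 2-fold margin.

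Genes with a mean of at least 100 CPM over the 19 libraries were taken as abundant, and there were 1932 of them. For 1876 abundant genes (97.1%) a 2-fold change lay outside the 95% interval, and for 1221 (63.2%) a 1.5-fold change did. Their median limit was 1.44-fold, with 5th and 95th percentiles of 1.26 and 1.87. The equivalence test at the 2-fold margin passed for 1896 of them, and at the 1.5-fold margin, adjusted over all genes, for 634. The limits did not narrow further at higher levels: the median limit was 1.44-fold both for the 1605 genes of 100 to 500 CPM and for the 327 genes of at least 500 CPM. Below 100 CPM the limits widened, to a median of 1.54-fold for 3394 genes of 20 to 100 CPM, 1.85-fold for 3390 genes of 5 to 20 CPM and 2.56-fold for 2112 genes under 5 CPM. In that lowest class a 2-fold change lay outside the interval for 261 genes and a 1.5-fold change for none.

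These intervals hold for each gene by itself. With intervals widened to hold for all 1932 abundant genes at once, a 2-fold change lay outside for 631 genes (32.7%), a 1.5-fold change for 0 and a 3-fold change for 1708 (88.4%). Without knockout library 4 and wild type library 5, the per-gene counts were 1900 for 2-fold and 1414 for 1.5-fold. Without wild type libraries 2 and 9, they were 1837 and 1047, and without wild type library 11 they were 1867 and 1158.

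**Figure D3:**
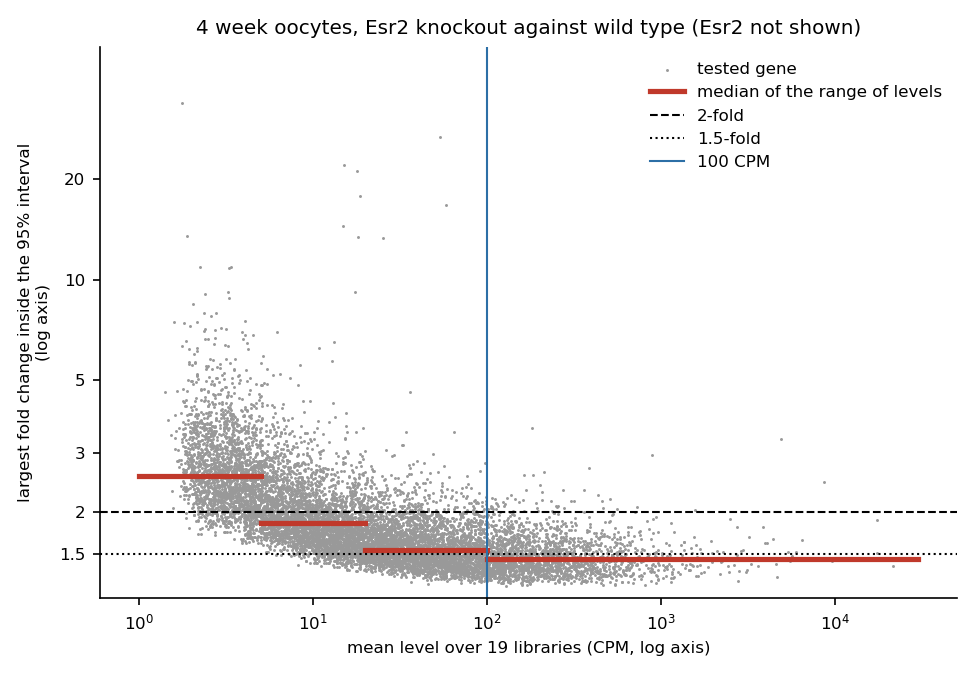
Largest fold change inside the 95% interval (either direction, log axis) against mean level in CPM (log axis) for the tested genes other than Esr2, with red bars for the median in each range of levels and lines at 2-fold, 1.5-fold and 100 CPM. The limits narrow with level and reach a median of 1.44-fold above 100 CPM.

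The narrowest limit among the abundant genes was that of Rnf17, a germ cell Tudor-domain gene, with 114, 124 and 141 CPM as lowest, median and highest values in knockout, against 110, 127 and 144 CPM in wild type, so that any change above 1.20-fold lay outside its interval. The widest limit was that of Lars2, the mitochondrial leucyl-tRNA synthetase, with 38.4, 128 and 379 CPM in knockout, against 29.2, 50.8 and 1122 CPM in wild type, and a limit of 3.58-fold. Both genes were picked after their values were seen. The mean of Rnf17 was 127 ± 12.2 CPM in knockout and 128 ± 12.2 CPM in wild type, and that of Lars2 165 ± 134 CPM in knockout and 190 ± 322 CPM in wild type (SD, n = 7 and 12), so the spread between libraries was far wider for Lars2.

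The 15 tested genes with the most reads, not corrected for transcript length, were mostly known oocyte genes. Zbed3, a component of the subcortical maternal complex, led with 13481, 19379 and 31100 CPM as lowest, median and highest values in knockout, against 11931, 22836 and 30732 CPM in wild type. Its log2 fold change was -0.05 ± 0.20 (SE), and the interval held rises up to 1.29-fold and falls up to 1.38-fold. H1f8, the oocyte linker histone, had a log2 fold change of -0.13 ± 0.22 and an interval of -0.59 to 0.32. Bcl2l10, a Bcl2 family member abundant in oocytes, had 0.11 ± 0.21 and a limit of 1.45-fold, and Btg4, an adaptor for the decay of maternal RNA, had a limit of 1.42-fold. Of the 15 genes, a 2-fold change lay inside the interval for 2. One was the clone-named locus CT010467.1, which ran from 2060 to 21757 CPM in knockout and from 1508 to 36599 CPM in wild type. The other was Plat, tissue plasminogen activator, which is stored as a dormant RNA in mouse oocytes.

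Plat had 884, 3215 and 6523 CPM as lowest, median and highest values in knockout, against 708, 7108 and 10867 CPM in wild type. All 7 knockout libraries were below the wild type median, but the groups overlapped. Here and below, counts of libraries above or below that median describe named genes only. The share of all tested genes with such a count is not given. The log2 fold change was -0.83 ± 0.44 (SE), and the interval held falls up to 3.33-fold and rises up to 1.06-fold. The difference was therefore not resolved in either direction.

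Of the secreted oocyte factors and genes of the zona pellucida, the coat of the oocyte, 0 of 14 tested members passed the adjusted test. Gdf9, the growth factor that directs granulosa cells, had 8272, 15389 and 20652 CPM as lowest, median and highest values in knockout, against 5404, 20376 and 30030 CPM in wild type. Its mean was 14511 ± 4926 CPM in knockout and 19079 ± 6915 CPM in wild type (SD, n = 7 and 12). The log2 fold change was -0.39 ± 0.26 (SE), with an interval of -0.92 to 0.13, so that falls up to 1.89-fold lay inside. A 2-fold fall came inside the interval without knockout library 3 (log2 limit 1.02), without knockout library 6 (1.05) and without wild type libraries 2 and 9 together (1.03). Its partner Bmp15 was measured more closely. It had 1038, 1535 and 1752 CPM in knockout, against 1046, 1668 and 2318 CPM in wild type, and a limit of 1.46-fold.

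Zp3, which encodes a structural protein of the zona, had 186, 254 and 356 CPM as lowest, median and highest values in knockout, against 137, 382 and 585 CPM in wild type. All 7 knockout libraries were below the wild type median, and the unadjusted p was 0.0498 (edgeR, adjusted p = 0.998). Zp2 and Zp1, the other zona genes of the list, had limits of 1.49-fold and 1.64-fold. Astl encodes ovastacin, the cortical granule protease that cleaves the zona protein ZP2 after fertilisation. It had 242, 524 and 1030 CPM in knockout, against 292, 1187 and 1803 CPM in wild type, a log2 fold change of -0.91 ± 0.32 (SE) and an adjusted p of 0.998 in edgeR. With 10 of the 14 members lower in knockout, the median log2 fold change of the list was -0.19, against -0.02 for all tested genes and 0.01 for the abundant genes. The share of all tested genes lower in knockout is not given, here or for the lists below. A 2-fold change lay outside the interval for 12 of 14, and Gdf9, Zp3 and Astl were among the members for which a 1.5-fold fall lay inside.

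Among maternal effect genes, whose products the early embryo uses, 0 of 21 tested members passed the test for a difference. A 2-fold change lay outside the interval for all 21, against 68.9% of all tested genes, and 17 of the 21 were abundant, a class in which the share was 97.1%. A 1.5-fold change lay outside for 13. Limits were 1.38-fold for Nlrp5 and 1.40-fold for Padi6, both needed for the cytoplasmic lattices of the oocyte. The limit of the histone chaperone Npm2 was 1.39-fold, Dppa3, which protects the maternal genome from demethylation, had an interval of -0.59 to 0.22 (log2). The widest of the list was Khdc3, at 1.99-fold. Nlrp14 had the smallest p, with 687, 939 and 1429 CPM as lowest, median and highest values in knockout, against 892, 1194 and 2086 CPM in wild type, and an adjusted p of 0.998 in edgeR.

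Among oocyte transcription factors, 0 of 15 tested members passed, and a 2-fold change lay outside the interval for 12. Limits were 1.42-fold for Nobox, a regulator of oocyte gene expression in early follicles, 1.48-fold for the homeobox gene Obox2 and 1.34-fold for the zinc finger gene Sall4. DNA methylation and chromatin modifiers had 0 of 30 tested members past the test and a 2-fold change outside the interval for 26. The maintenance methyltransferase Dnmt1 had a limit of 1.34-fold and the de novo methyltransferase Dnmt3a one of 1.30-fold. Tet3, the dioxygenase that oxidises 5-methylcytosine after fertilisation, was the member whose interval lay nearest to one side, with 1426, 1471 and 2266 CPM in knockout, against 972, 1325 and 1951 CPM in wild type. All 7 knockout libraries were above the wild type median, and the log2 fold change was 0.32 ± 0.16 (SE), with an interval of -0.01 to 0.64.

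Genes of meiotic arrest and the cell cycle had 0 of 34 tested members past the test, a median log2 fold change of -0.03 and a 2-fold change outside the interval for 30. Mos, the kinase that holds the mature egg at its second meiotic arrest, was the exception among the abundant members. It had 407, 1296 and 1883 CPM in knockout, against 491, 1844 and 2356 CPM in wild type, and a limit of 2.02-fold. Limits of 1.40-fold for Pde3a, the phosphodiesterase that breaks down cyclic AMP, and 1.34-fold for Fbxo43, an inhibitor of the anaphase-promoting complex, were narrower. Of 22 tested genes of cohesin and the spindle checkpoint, 0 passed, and a 2-fold change lay outside the interval for 21 and a 1.5-fold change for 16. The checkpoint kinase gene Bub1b had a limit of 1.38-fold and Cdca8, a subunit of the chromosomal passenger complex, one of 1.26-fold.

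**Figure D4:**
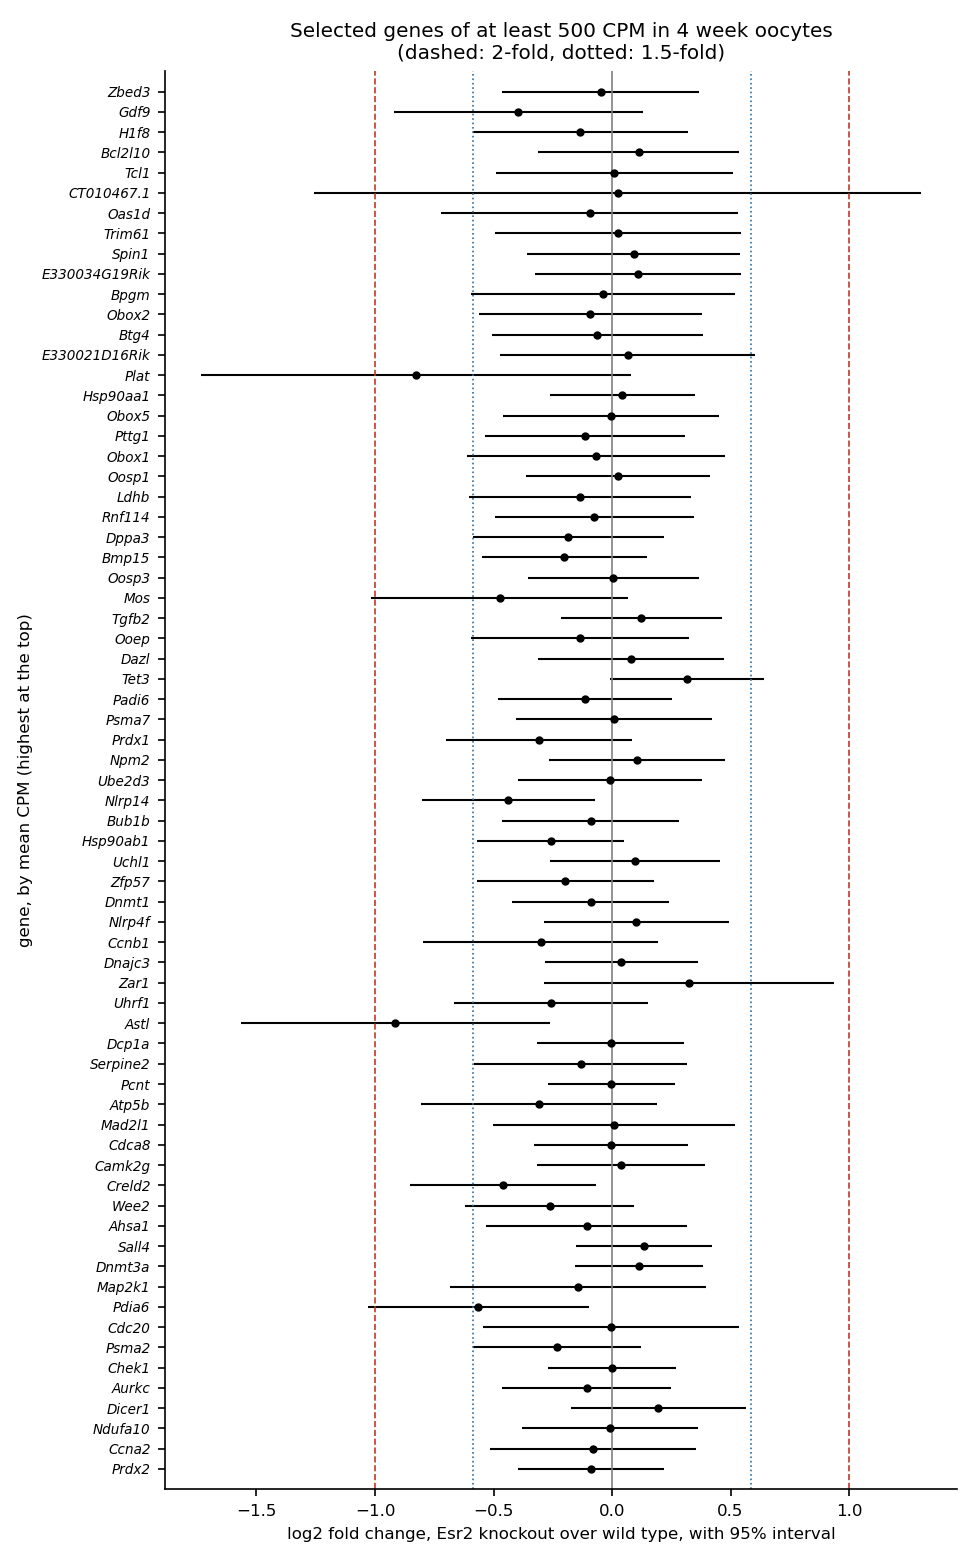
Log2 fold change, Esr2 knockout over wild type, with its 95% interval for 69 genes with a mean of at least 500 CPM, chosen by rank, as list members or for their interval, ordered by mean CPM, with dashed lines at 2-fold and dotted lines at 1.5-fold. The intervals of all but CT010467.1, Plat, Mos, Astl and Pdia6 lie within 2-fold.

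Chaperones of the endoplasmic reticulum, which fold secreted proteins, had 0 of 27 tested members past the test and a median log2 fold change of -0.20, against -0.02 for all tested genes, with 9 members higher and 18 lower in knockout. Hspa5, the main chaperone of this compartment, had 173, 351 and 408 CPM as lowest, median and highest values in knockout, against 193, 457 and 580 CPM in wild type, with falls up to 1.80-fold inside the interval. Pdia6, a disulfide isomerase, had 274, 427 and 576 CPM in knockout, against 190, 603 and 1043 CPM in wild type, and a limit of 2.04-fold. All 7 knockout libraries were below the wild type median for Pdia6 and for Creld2, a stress-induced protein of the same compartment. Hspa13, another chaperone gene of the HSP70 family, stood on the other side, with 6.40, 8.12 and 18.7 CPM in knockout, against 0, 5.20 and 9.61 CPM in wild type. All 7 knockout libraries were above the wild type median for Hspa13, and its log2 fold change was 0.85 ± 0.42 (SE), with an adjusted p of 0.998 in edgeR. A 2-fold change lay outside the interval for 23 of the 27. The cytosolic chaperones had 0 of 22 past the test, with a limit of 1.27-fold for Hsp90aa1.

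Proteasome subunits had 0 of 30 tested members past the test, a median log2 fold change of -0.11 and a 2-fold change outside the interval for 24. Psmb3, a subunit of the catalytic core, had 49.6, 85.5 and 113 CPM in knockout, against 88.6, 122 and 229 CPM in wild type. Its limit was 2.13-fold, and that of Psma7, another core subunit, was 1.34-fold.

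Nuclear genes of oxidative phosphorylation had 0 of 69 tested members past the test. Their values leaned low, with 60 of 69 lower in knockout and a median log2 fold change of -0.26, against -0.02 for all tested genes. Of the 69, 6 were abundant, and less abundant genes leaned low in general, with medians of -0.06 at 5 to 20 CPM and -0.08 under 5 CPM. The list was bounded less well, with a 2-fold change outside the interval for 34. The 4 members with the most reads had limits of 1.30-fold (Ndufa10, of complex I), 1.55-fold (Uqcrc2, of complex III), 1.74-fold (Sdha, of complex II) and 1.75-fold (Atp5b, of the ATP synthase). Without knockout library 6 the log2 limit of Sdha was 1.01, past 2-fold. Atp5pb, another ATP synthase subunit, had 19.7, 22.9 and 35.4 CPM in knockout, against 22.4, 36.3 and 53.2 CPM in wild type. Cytosolic ribosomal proteins had 0 of 32 past the test and a median of -0.13. Genes of 1 list are not independent replicates, and no test was made of the count of 60 of 69.

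The other 8 lists gave no call either. For the maternal RNA storage and decay list, 0 of 28 tested members passed and a 2-fold change lay outside the interval for 24, with limits of 1.39-fold for Dazl, a germ cell RNA-binding protein, and 1.24-fold for the decapping gene Dcp1a. For DNA damage and apoptosis it was 0 of 24 and 19, for the PI3K, mTOR and follicle activation list 0 of 22 and 20, and for fertilisation and egg activation 0 of 17 and 12. For antioxidants and iron storage it was 0 of 20 and 14, and for the piRNA and endo-siRNA pathway 0 of 13 and 8. Foxo3, the transcription factor that keeps primordial follicles dormant, had a limit of 1.68-fold. For cholesterol synthesis it was 0 of 18 and 12, and for glycolysis 0 of 19 and 10. Ldhb, the lactate dehydrogenase subunit that favours pyruvate, had a limit of 1.52-fold.

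Of 13 tested steroid receptors and cofactors, Esr2 alone passed the test. The coactivators Ncoa1 and Ncoa3, which bind ligand-activated nuclear receptors, were above the wild type median in all 7 knockout libraries. Ncoa1 had 33.6, 43.0 and 84.6 CPM in knockout, against 21.6, 32.04 and 50.8 CPM in wild type. Ncoa3 had 236, 280 and 418 CPM in knockout, against 181, 235 and 290 CPM in wild type, and the adjusted p of both was 0.998 in edgeR. Ncoa2, the third of this family, had a log2 fold change of -0.03 ± 0.15 (SE) and a limit of 1.26-fold.

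Estrogen receptors bind a palindrome of 2 GGTCA sites, and 3 promoters of tested genes that hold it are shown because they are the ones in which a direct target would be sought first. The motif searched was GGTCANNNTGACC, which reads the same on both strands, in RefSeq promoters of 300 bases (GRCm38.p6, 250 before to 50 after the start site). It was present in 23 of 32851 promoters, or 0.0700%. Promoters were matched by symbol for 7979 of the 10828 tested genes. Any hits on a single chromosome were left out, and 3 of these genes on the other chromosomes held the motif. Each stretch below is on the strand of its gene, with the motif in capitals.
Cd300c: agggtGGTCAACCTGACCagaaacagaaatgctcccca
Lmntd1: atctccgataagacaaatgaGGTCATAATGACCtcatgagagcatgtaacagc
Pde10a: gggcggttGGTCAACCTGACCagagggag
The promoters lie at chr11:114960458-114960757 on the minus strand for Cd300c, chr6:145434876-145435175 on the minus strand for Lmntd1 and chr17:8849735-8850034 on the plus strand for Pde10a. The centre of the motif stands 239 bases before the start site in Cd300c, 36 before it in Lmntd1 and 23 after it in Pde10a.

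None of the 3 genes differed past the test. Cd300c, an immune receptor gene, had 10.2, 19.5 and 37.9 CPM as lowest, median and highest values in knockout, against 17.1, 26.3 and 38.6 CPM in wild type, and a limit of 1.56-fold. Pde10a, a cyclic nucleotide phosphodiesterase gene, had 5.86, 7.22 and 10.8 CPM in knockout, against 1.74, 9.69 and 14.98 CPM in wild type, and a limit of 1.85-fold. Lmntd1, which encodes a lamin tail domain protein, had 0.449, 2.71 and 11.1 CPM in knockout, against 0, 3.66 and 6.08 CPM in wild type, and a limit of 2.72-fold. The groups overlapped for all 3. A match is no evidence of binding, and a promoter without a match lacks only these letters in this window.

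Oocyte genes that face the granulosa cells, such as receptors, junction proteins and transporters, had 0 of 23 tested members past the test. Kit, the receptor for granulosa Kit ligand, was bounded closely, with 150, 166 and 222 CPM as lowest, median and highest values in knockout, against 119, 172 and 233 CPM in wild type, and a limit of 1.24-fold. Gja4, the connexin of the gap junctions between oocyte and granulosa cells, had 74.3, 100 and 138 CPM in knockout, against 74.2, 137 and 186 CPM in wild type, with falls up to 1.66-fold and rises up to 1.02-fold inside its interval. A 2-fold change lay outside the interval for 17 of the 23.

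Granulosa cells of the same age, in 7 knockout and 7 wild type libraries, had 283 of 12161 genes past the same edgeR test, or 2.33%. Apart from Esr2, 120 of these 283 genes were tested in oocytes. They had been selected on the granulosa libraries, so their granulosa change is no finding, whereas the oocyte libraries took no part in the choice. In oocytes 0 of the 120 passed. Their median absolute log2 fold change was 0.25 in oocytes and 1.33 in granulosa cells. For 108 of the 120 the granulosa estimate lay outside the 95% interval of the oocyte estimate. That count takes no account of the error of the granulosa estimates or of their selection. In the joint model of both cell types, described below, the difference passed for 33 of the 120 (edgeR, adjusted p under 0.05), against 45 of all 11795 genes (0.382%). The granulosa libraries that selected the 120 also enter this difference, so the count of 33 is a description. A 2-fold change in oocytes lay outside the interval for 77 of the 120 (64.2%), against 68.9% of all tested genes, and for all 19 that were abundant in oocytes, against 97.1% of all abundant genes.

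The 5 with the smallest p in granulosa cells show the contrast. Col6a3, a chain of collagen VI, had 20.3, 35.2 and 66.2 CPM as lowest, median and highest values in knockout oocytes, against 24.1, 33.9 and 45.3 CPM in wild type oocytes. Its log2 fold change was 0.30 ± 0.21 (SE) in oocytes and -3.41 ± 0.31 in granulosa cells. Entpd1, which encodes the ectonucleotidase CD39, had 37.6, 47.0 and 63.3 CPM in knockout oocytes, against 26.4, 49.4 and 87.0 CPM in wild type oocytes, with -0.10 ± 0.21 in oocytes and -2.56 ± 0.28 in granulosa cells. The mucin-like gene Dmbt1 had 0.25 ± 0.28 in oocytes and -2.78 ± 0.29 in granulosa cells. Thbs4, a thrombospondin of the extracellular matrix, had -0.39 ± 0.42 and -3.60 ± 0.33. Pik3c2g, a lipid kinase gene, had 0.60 ± 0.62 and -2.82 ± 0.27, on 0.586 to 5.38 CPM in knockout oocytes and 0 to 4.91 CPM in wild type oocytes.

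**Figure D5:**
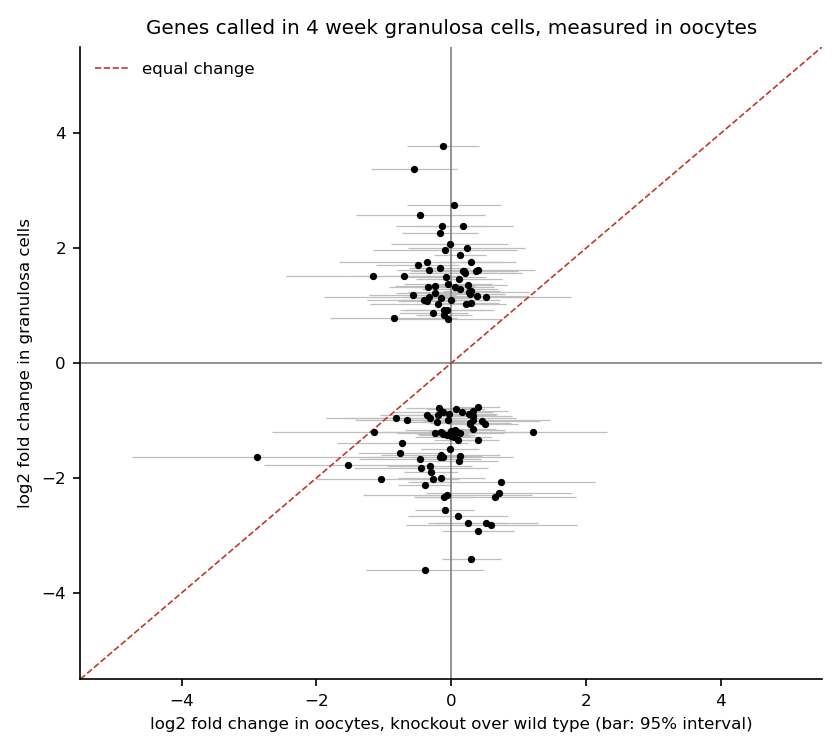
Log2 fold change, Esr2 knockout over wild type, in 4 week granulosa cells against that in 4 week oocytes, for the 120 genes called in granulosa cells and tested in oocytes, with 95% intervals for oocytes and a dashed line of equal change. The oocyte values cluster around 0 across the range of the granulosa values.

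The difference between the cell types was tested in 1 model of both. Of 11795 genes, 45 (0.382%) had a knockout effect that differed at an adjusted p under 0.05 in edgeR, 30 with a higher and 15 with a lower log2 fold change in oocytes than in granulosa cells. For 40 of the 45 the absolute effect was smaller in oocytes. In this model 179 genes passed in granulosa cells and 1 in oocytes. The 45 were chosen by their difference, so the count of 40 is a description. Mtus1, a microtubule-associated gene at a mean of 682 CPM in oocytes, had a log2 fold change of 0.06 in oocytes (interval -0.24 to 0.37) and of -1.19 ± 0.21 (SE) in granulosa cells, with an adjusted p of 0.00663 for the difference. Mtus1 was picked after its values were seen, as the most abundant in oocytes of the 120 genes whose difference passed.

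Genes near Esr2 were examined as well, since a knockout can carry flanking sequence of another strain. Of 81 protein-coding genes within 5 Mb, 48 were tested, and Esr2 was the only call. A 2-fold change lay outside the interval for 34. Tmem30b, a subunit of lipid flippases, had the smallest p of the others, with 11.0, 16.9 and 21.7 CPM as lowest, median and highest values in knockout, against 18.5, 22.7 and 37.1 CPM in wild type (edgeR, adjusted p = 0.998).

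The knockout effect at 4 weeks was then set against that in oocytes of the other ages, in 1 model of all 51 oocyte libraries and 13471 genes. The difference between 4 and 7 weeks passed for 0 genes (0.0%), with 1526 at an unadjusted p under 0.05, and the difference between 4 weeks and 6 months for 0 genes (0.0%), with 397. In limma voom the counts were 0 and 1. Gdf9, Astl and Plat, which had low values at 4 weeks, had the opposite sign at 7 weeks and 6 months. In the joint model Gdf9 had a log2 fold change of -0.38 ± 0.26 (SE) at 4 weeks, 0.86 ± 0.29 at 7 weeks and 0.24 ± 0.32 at 6 months. Astl had -0.90 ± 0.29, 0.93 ± 0.32 and 0.21 ± 0.35, and Plat had -0.82 ± 0.40, 1.29 ± 0.44 and 0.30 ± 0.49, at the same 3 ages. None of these 3 genes passed the test at any age, with adjusted p between 0.228 and 0.233 in edgeR at 7 weeks. Nuclear oxidative phosphorylation genes had medians of -0.25, -0.62 and -0.50 at the 3 ages, against -0.02, -0.00275 and -0.06 for all genes of the joint model. This was not particular to them: cytosolic ribosomal proteins had -0.12, -0.53 and -0.52, and antioxidant and iron storage genes -0.20, -0.25 and -0.22. The list of secreted oocyte factors and zona genes changed sign, with -0.17, 0.37 and 0.01. Of the 350 genes other than Esr2 with an unadjusted p under 0.05 at 4 weeks, 135 (38.6%) had the same sign at 7 weeks and 228 (65.1%) at 6 months, against 40.1% and 49.3% of all 10826 genes tested at 4 weeks that the joint model holds. These genes did not pass the adjustment and are not independent replicates, and no test was made of these shares.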

How the data were processed

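Smart-seq2 libraries of 4 week mouse oocytes were compared, 7 of Esr2 knockout and 12 of wild type mice, grouped by their titles. The deposited tables hold estimated counts per gene, which the authors did not normalise. Of these values 17.9% were not whole, and they were rounded before testing. STAR, Partek and DESeq2, with no versions, and the build mm10 are named in the submitters' processing notes. The annotation used by the authors is not given in the sources used here. The authors' deposited normalised signal values, counts divided by 1 size factor per library, served only in 1 alternative, as log2(value + 1) in limma 3.58.1.

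Low counts were filtered with filterByExpr, libraries were scaled with TMM, and genes were tested by the robust quasi-likelihood F test of edgeR 4.0.16 in R 4.3.3, with Benjamini-Hochberg adjustment over all tested genes. Standard errors and 95% intervals came from the same fit, with the quasi-likelihood dispersion and its degrees of freedom. CPM are TMM-scaled for genes and scaled to library totals for marker sums. Equivalence was tested by 2 one-sided tests per gene. Age and cell type differences were contrasts in joint edgeR models; 1 knockout column at 7 weeks has a name that joins 2 sample numbers and was kept in its group. No pair of libraries held identical values.

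The comparison, the 22 gene lists and the 7 marker lists were chosen with earlier results of these data known. Named genes were Esr2 and Esr1, called genes of at least 5 CPM, the 15 with the highest CPM, up to 4 members per list by CPM, and the 5 granulosa calls with the smallest p that were tested in oocytes. Genes named for a small p, a wide or narrow interval or a known role in a list were chosen after their values were seen. Alternatives were other normalisation, filters, tests (DESeq2 1.42.0, limma voom), covariates, a replicate block, other abundance minimums, simultaneous intervals and leaving out each library. Coordinates are those of GRCm38, from GENCODE vM21 and RefSeq.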

Additional observations from a re-analysis of the deposited data

Results flagged for a closer look

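Single knockout libraries lay far from the other 6 for 9 of 117 values examined, by the gap to the nearest library relative to the range; chance gives about 1 in 20. Knockout library 4, which stood apart on the first principal component, had the highest value of 7 of the 9. In it Dnmt1 reached 1260 CPM (others 736 to 956), Myo10, a myosin of cell protrusions, 752 CPM (others 282 to 479), and Brca2, a DNA repair gene, 781 CPM (others 334 to 454). Insig1, a regulator of sterol synthesis, reached 268 CPM (others 115 to 172), Upk3b, a surface epithelium marker, 22.4 CPM (others 3.25 to 11.1), Dmbt1 38.6 CPM (others 9.28 to 19.03), and the sum of surface epithelium markers 25.6 CPM (others 4.25 to 11.8). In knockout library 6, Wee2, an oocyte kinase of meiotic arrest, reached 864 CPM (others 477 to 583) and Uhrf1, a partner of Dnmt1, 1209 CPM (others 576 to 846). The cause was not tested.

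The knockout effect differed between oocytes and granulosa cells at 4 weeks for 45 genes (edgeR, joint model). Among the genes named in the report, the log2 effect in oocytes minus that in granulosa cells was 3.66 for Col6a3, 3.36 for Pik3c2g, 3.18 for Thbs4, 2.99 for Dmbt1 and 2.45 for Entpd1. These 5 were selected on their granulosa change, so the sizes of the differences are a description.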

How the results depend on the processing

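Esr2 was the single call under all alternatives run: other size factors, no filter, a minimum of 5 CPM, DESeq2, limma voom, limma on the authors' normalised values, no robust fit, covariates for granulosa markers, depth or the first principal component, all 51 oocyte libraries, the replicate block and leaving out each of the 19 libraries. The first principal component, the sets without 2 libraries and the 14 libraries without a block were chosen after seeing the data. The granulosa marker covariate was mostly Serpine2, with means of 805 CPM in knockout and 861 CPM in wild type. It did not follow Inha and cannot adjust for granulosa RNA as a whole. The share of abundant genes with a 2-fold change outside the interval ran from 94.0% to 98.6% when 1 library was left out, and that for 1.5-fold from 50.7% to 66.5%. With simultaneous intervals the shares were 32.7% and 0%. Covariates moved the 1.5-fold count more, from 1221 of the 1932 abundant genes to 961 (depth), 1634 (granulosa markers) and 1782 (first principal component). For 2-fold the counts were 1789, 1918 and 1922, against 1876 in the main fit. The replicate block, with the 7 numbers that both groups share, left 27.1% for 1.5-fold, against 43.0% in the same 14 libraries without it; libraries of the same number did not vary together (residual correlations from -0.67 to 0.50, and 1 of 7 correlated best with its own number), so the numbers were not taken as pairs. Limma voom gave 1 gene for the difference between 4 weeks and 6 months. Of 108 named genes other than Esr2, 95 had a 2-fold change outside the interval. Across the alternatives 3604 of 3670 values stayed on the same side, 28 values of 7 genes lost that bound and 38 values of 6 genes gained it. Under 5 CPM, where counts per library are few, a 2-fold change lay inside the interval for 1851 of 2112 genes.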
